A study of Mus musculus with 10 samples.

Results

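The genes described here encode 10 proteins of excitation-contraction coupling in skeletal muscle. They were chosen by name (*Ryr1*, *Ryr3*, *Cacna1s*, *Cacng1*, *Atp2a1*, *Casq1*, *Casq2*, *Trdn*, *Stac3* and *Jph2*), and each symbol matched 1 of the 53465 genes in the deposited count table. RNA came from whole pinna prominences, the forming external ear, micro-dissected from mouse embryos at stage E14.5. The 5 wild-type (WT) embryos were compared with 5 mEC1dup/dup embryos, a knock-in line made with CRISPR/Cas9 that carries an additional copy of the enhancer mEC1 on each allele. Both genotypes were on a C57BL/6J background. The replicates were independent embryos from separate litters, and neither the number of founders behind the line nor the litter of each library was given. mEC1 regulates *Hmx1*, a homeobox gene, and the comparison asks which genes differ in the forming pinna when the enhancer is duplicated.

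In a muscle fibre, an action potential spreads along the transverse tubules and is sensed by the dihydropyridine receptor, a voltage-gated calcium channel complex. The receptor opens the ryanodine receptor in the facing membrane of the sarcoplasmic reticulum, and the calcium that flows out triggers contraction. Calcium is then pumped back into the reticulum and bound there by calsequestrin. The outer ear contains small skeletal muscles that move the pinna, and the deposited libraries mix their RNA with that of cartilage, fibroblasts, epidermis, vessels and nerve.

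Total counts per library ranged from 17536112 to 18265354 in WT and from 17461544 to 18462073 in mEC1dup/dup. *Hmx1* had 26.6 ± 3.0 CPM, counts scaled to a common library size, in WT and 66.2 ± 9.11 in mEC1dup/dup (SD, n = 5 each), with no overlap between the genotypes. *Xist*, a transcript of female cells, had at most 5 counts per library in WT. The mEC1dup/dup replicates 1 to 5 held 12812, 19040, 18165, 2096 and 0 of its counts. Replicate 4 thus stood between replicates 1 to 3 and the embryos with few or no counts, and the reason was not tested. The embryonic globin genes gave 18.4% to 23.3% of all globin counts in WT and 32.5% to 35.6% in mEC1dup/dup. These measures moved with genotype, and sex cannot be fully told apart from it. The globin share, examined as a check of embryonic stage, did not overlap between the genotypes and cannot be told apart from genotype at all. Whether the embryos differed in stage was not tested in another way. Skeletal muscle was present in every library, since the 12 differentiated muscle markers examined summed to at least 1654 CPM.

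All 10 coupling genes had a lower mean in mEC1dup/dup than in WT, but only *Casq1* passed the test. Of all 16426 tested genes, 8409 had a negative log2 fold change. The 10 genes also varied together between embryos, so their signs are not 10 independent results. Log2 fold changes ran from -0.71 for *Casq1* to -0.18 for *Stac3*, with a median of -0.40, while the median over all 16426 tested genes was -0.00415. A gene was called at an adjusted p of at most 0.05 (edgeR's quasi-likelihood test, Benjamini-Hochberg over all tested genes) and a mean log2 CPM no lower than 1, the thresholds of the study. By this rule 1 of the 10 genes was called lower, beside 1.81% of all tested genes, and none was called higher, beside 0.834% of all tested genes (2.64% in either direction). For *Casq1* and *Casq2*, every mEC1dup/dup embryo lay below every WT embryo, which held in that direction for 2.75% of all tested genes. Without adjustment, 6 of the 10 genes had a p under 0.05, beside 2658 of all 16426 tested genes. With replicate number as a block, a pairing that the labels do not state, 4 of the 10 were called lower, beside 487 of all tested genes. With *Xist* or the embryonic globin share in the fit, 0 of the 10 were called, beside 1 and 0 of all tested genes called lower. Bulk RNA cannot tell fewer muscle cells from less RNA per muscle cell.

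**Figure D1:**
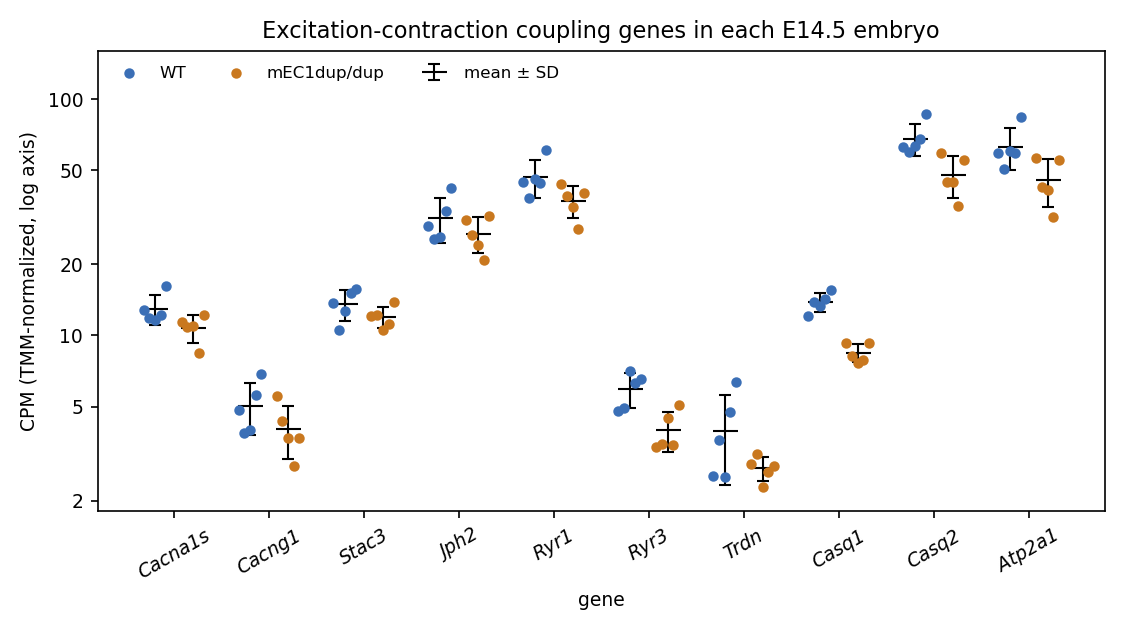
CPM of each coupling gene (log axis) in 5 WT and 5 mEC1dup/dup embryos. Each point is 1 embryo, drawn from left to right as replicates 1 to 5, and bars give the mean ± SD. The points of the genotypes do not overlap for *Casq1* and *Casq2*, and they overlap for the other 8 genes.

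*Casq1* and *Casq2* encode calsequestrins, which bind calcium inside the sarcoplasmic reticulum. *Casq1* is the form of fast skeletal muscle, and *Casq2* is the form of heart and of slow and developing skeletal muscle. *Casq1* (ENSMUSG00000007122) lies on the minus strand of GRCm39 at chr1:172037459-172049328. It had 12.1, 13.9, 13.3, 14.3 and 15.6 CPM in WT replicates 1 to 5, and 9.26, 8.21, 7.66, 7.87 and 9.26 CPM in mEC1dup/dup replicates 1 to 5. The lowest WT embryo thus stood clear of the highest mEC1dup/dup embryo, and the spread within each genotype was narrow. The log2 level of *Casq1* fell by 0.71 (standard error, SE, 0.09, with an adjusted p of 0.00327 in the edgeR test), a level 39.0% lower. It rested on 210 to 282 counts per WT library and 141 to 171 per mEC1dup/dup library. When any 1 embryo was left out, *Casq1* kept a log2 fold change between -0.76 and -0.67, and the call held in all 10 fits. The call was lost with *Xist* or the embryonic globin share in the fit (adjusted p = 0.288 and 0.898 in the edgeR test). It was also lost with counts scaled to the differentiated muscle markers (adjusted p = 0.23 in the same test).

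*Casq2* (ENSMUSG00000027861, plus strand, chr3:101993234-102056307) had 62.5, 59.8, 63.4, 67.6 and 86.0 CPM in WT replicates 1 to 5. In mEC1dup/dup replicates 1 to 5 it had 59.3, 44.4, 44.4, 35.2 and 55.3 CPM. The genotypes were separate by a small gap, between 59.3 CPM in mEC1dup/dup replicate 1 and 59.8 CPM in WT replicate 2. Its log2 fold change of -0.51 (SE 0.13) missed the threshold at an adjusted p of 0.0603 in the edgeR test. The Wald test of DESeq2 called it (adjusted p = 0.00329), as did the edgeR test without mEC1dup/dup replicate 1 (adjusted p = 0.0282). The edgeR test also called it without a filter on low counts (adjusted p = 0.0206) and with the replicate block (adjusted p = 0.015). With *Xist* in the fit its log2 fold change was -0.37 (adjusted p = 0.633 in the edgeR test). It was -0.97 with the globin share (adjusted p = 0.898) and -0.10 when scaled to the muscle markers (adjusted p = 0.655).

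*Trdn* encodes triadin, which anchors calsequestrin to the ryanodine receptor at the junction. It lies on the plus strand at chr10:32956550-33356376 and was the lowest of the 10 genes in CPM, with 2.53 to 6.37 CPM in WT and 2.28 to 3.14 CPM in mEC1dup/dup. The WT embryos spread widely, and WT replicates 1 and 3 lay inside the mEC1dup/dup range. The log2 fold change of *Trdn* was -0.53 (SE 0.25, adjusted p = 0.313 in the edgeR test), and without WT replicate 5 it was -0.29.

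The sequences before the starts of *Casq1* and *Casq2* are shown because these are the genes whose embryos separated by genotype, and that of *Ryr3* because it held the HMX core sequence more than once. They were read from GRCm39 in the direction of transcription, 5′ to 3′, before the start of the canonical transcript of the GENCODE annotation. Capitals mark an E-box (CANNTG) and a match to the MEF2 site in *Casq1*, the E-box CAGCTG in *Casq2*, and the HMX core CAAGTG or its reverse complement in *Ryr3*. The *Casq1* window lies inside the annotated gene, since other transcripts start further upstream, and it is exonic in 2 of them. The windows are chr1:172047753-172047782 (minus strand), chr3:101993134-101993233 (plus strand) and chr2:113047533-113047632 (minus strand).
Casq1: tCATCTGgtcTTATTTTTAGatccggcatc
Casq2: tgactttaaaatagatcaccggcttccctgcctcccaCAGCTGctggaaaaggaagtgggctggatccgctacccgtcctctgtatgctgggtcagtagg
Ryr3: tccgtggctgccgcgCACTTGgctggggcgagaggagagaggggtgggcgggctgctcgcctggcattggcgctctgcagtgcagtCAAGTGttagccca

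E-boxes are bound by the myogenic factors of the MyoD family, and MEF2 proteins act with them in muscle genes. Counts were made on both strands in windows from 250 bases before to 50 bases after the start, for the 10 genes and for 16321 tested genes in all. CANNTG was found in 8 of the 10 windows and in 66.9% of all windows. CAGCTG, one form of CANNTG, was found in 5 of the 10 (*Cacna1s*, *Cacng1*, *Casq2*, *Stac3* and *Jph2*) and in 2360 of the 16321 windows. A MEF2 match was found in *Casq1* alone among the 10 and in 2.3% of all windows. CAAGTG, which is also a form of CANNTG, was found in *Ryr3* and *Cacna1s* and in 12.6% of all windows. It occurred more than once in *Ryr3* alone among the 10 and in 0.895% of all windows. The study found no enrichment of the *Hmx1* motif in promoters or regulatory elements of its downregulated genes. These matches are descriptions of the letters, and no binding was measured.

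*Ryr1* and *Ryr3* encode ryanodine receptors, the calcium release channels of the reticulum. *Ryr1* is the main channel of skeletal muscle, and *Ryr3* is found at lower levels, mostly in immature and some specialised muscles. *Ryr3* (minus strand, chr2:112461699-113047441) had 4.80, 4.93, 7.07, 6.26 and 6.54 CPM in WT replicates 1 to 5, and 3.37, 3.47, 4.45, 3.45 and 5.09 CPM in mEC1dup/dup replicates 1 to 5. The genotypes overlapped through mEC1dup/dup replicate 5 alone, and the log2 fold change of -0.58 (SE 0.16) had an adjusted p of 0.0825 in the edgeR test. The Wald test of DESeq2 called *Ryr3* lower (adjusted p = 0.0284), as did the edgeR test with the replicate block (adjusted p = 0.0342). These were 2 of 12 alternatives. With *Xist* in the fit its log2 fold change was -0.28 (adjusted p = 0.763 in the edgeR test). It was -0.73 with the globin share (adjusted p = 0.91) and -0.15 when scaled to the muscle markers (adjusted p = 0.61).

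*Ryr1* (minus strand, chr7:28702769-28824604) had 44.5, 38.0, 45.9, 44.3 and 60.8 CPM in WT replicates 1 to 5, and 43.7, 38.7, 35.1, 28.2 and 40.0 CPM in mEC1dup/dup replicates 1 to 5. Here 4 WT embryos lay above all mEC1dup/dup embryos, and WT replicate 2 lay among them. The log2 fold change of *Ryr1* was -0.33 (SE 0.13, adjusted p = 0.21 in the edgeR test).

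*Atp2a1* encodes SERCA1, the calcium pump of fast skeletal muscle that returns calcium to the reticulum. It lies on the minus strand at chr7:126045013-126063423, and exons of genes on the opposite strand cover 17.6% of its exonic bases. It had 58.8, 50.8, 60.1, 58.9 and 84.2 CPM in WT replicates 1 to 5, and 56.2, 42.4, 41.2, 31.6 and 55.0 CPM in mEC1dup/dup replicates 1 to 5. WT replicate 5 was far above the other embryos, and mEC1dup/dup replicates 1 and 5 lay above WT replicate 2. The log2 fold change of -0.47 (SE 0.16) had an adjusted p of 0.146 in the edgeR test.

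The voltage sensor was represented by *Cacna1s*, its pore-forming subunit, by *Cacng1*, its gamma subunit, and by *Stac3*, an adaptor that links it to the release channel. *Cacna1s* (plus strand, chr1:135980259-136047560) had 12.8, 11.8, 11.6, 12.2 and 16.1 CPM in WT replicates 1 to 5, and 11.4, 10.8, 10.9, 8.41 and 12.2 CPM in mEC1dup/dup replicates 1 to 5. Only mEC1dup/dup replicate 5 reached the WT range, and the log2 fold change was -0.27 (SE 0.12, adjusted p = 0.285 in the edgeR test). Exons of genes on the opposite strand cover 20.8% of its exonic bases.

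*Cacng1* (minus strand, chr11:107591493-107607408) ranged from 3.88 to 6.87 CPM in WT and from 2.80 to 5.54 CPM in mEC1dup/dup. Its log2 fold change was -0.33 (SE 0.20, adjusted p = 0.48 in the edgeR test). *Stac3* (plus strand, chr10:127337542-127344696) ranged from 10.6 to 15.7 CPM in WT and from 10.5 to 13.9 CPM in mEC1dup/dup, the smallest difference of the 10 genes (log2 fold change -0.18, SE 0.11, adjusted p = 0.481). For *Cacng1*, 3 mEC1dup/dup embryos lay below all WT embryos, and for *Stac3* 1 did.

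*Jph2* encodes junctophilin 2, which ties the plasma membrane to the reticulum and is best known from heart, where it is the main junctophilin. It lies on the minus strand at chr2:163178162-163239920 and ranged from 25.5 to 42.0 CPM in WT and from 20.8 to 32.1 CPM in mEC1dup/dup. mEC1dup/dup replicates 3 and 4 lay below all WT embryos, and the log2 fold change was -0.22 (SE 0.15, adjusted p = 0.514 in the edgeR test).

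Levels can be set against each other per length, in CPM per kilobase of annotated exon. In WT the order of mean levels was *Casq2* (11.9 ± 1.84), *Atp2a1* (9.27 ± 1.87), *Jph2* (4.51 ± 0.98), *Stac3* (4.16 ± 0.63), *Cacng1* (2.29 ± 0.56), *Casq1* (2.23 ± 0.21), *Ryr1* (2.14 ± 0.39), *Cacna1s* (1.59 ± 0.23), *Ryr3* (0.31 ± 0.05) and *Trdn* (0.19 ± 0.08) (SD, n = 5 each). The ranges of neighbours did not overlap between *Atp2a1* and *Jph2*, between *Stac3* and *Cacng1*, and between *Cacna1s* and *Ryr3*. They overlapped at the other steps, although *Casq2* was above *Atp2a1* within each of the 5 WT and 5 mEC1dup/dup embryos. In mEC1dup/dup the order was the same except that *Casq1* (1.36 ± 0.12) came after *Ryr1* (1.70 ± 0.27, SD, n = 5 each). *Ryr1* was above *Casq1* within all 5 mEC1dup/dup embryos, and *Casq1* was above *Ryr1* within 3 of the 5 WT embryos. The exonic length joins all annotated transcripts of a gene, so genes with many alternative exons, such as *Trdn*, are understated.

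The 10 genes tended to be high or low together in an embryo. WT replicate 5 was the highest of all 10 embryos for 9 genes, and *Ryr3* was the exception, highest in WT replicate 3. mEC1dup/dup replicate 4 was the lowest of all embryos for 6 genes, replicate 3 for *Casq1*, *Trdn* and *Stac3*, and replicate 1 for *Ryr3*. Relative to the WT mean of each gene, the median of the 10 genes was 0.38 in WT replicate 5 and -0.25 to 0.07 in the other WT embryos on the log2 scale. In mEC1dup/dup it was -0.16, -0.25, -0.40, -0.73 and -0.20 in replicates 1 to 5. Of the 10 genes, 4, 5, 10, 8 and 3 lay below every WT embryo in mEC1dup/dup replicates 1 to 5, beside 19.2% to 21.3% of all tested genes in a single replicate. The median log2 fold change of the 10 genes was -0.25 without WT replicate 5 and -0.30 without mEC1dup/dup replicate 4, and all 10 stayed negative in both fits. Without WT replicate 5 the value of *Jph2* was -0.09, that of *Cacng1* -0.19 and that of *Ryr1* -0.22.

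**Figure D2:**
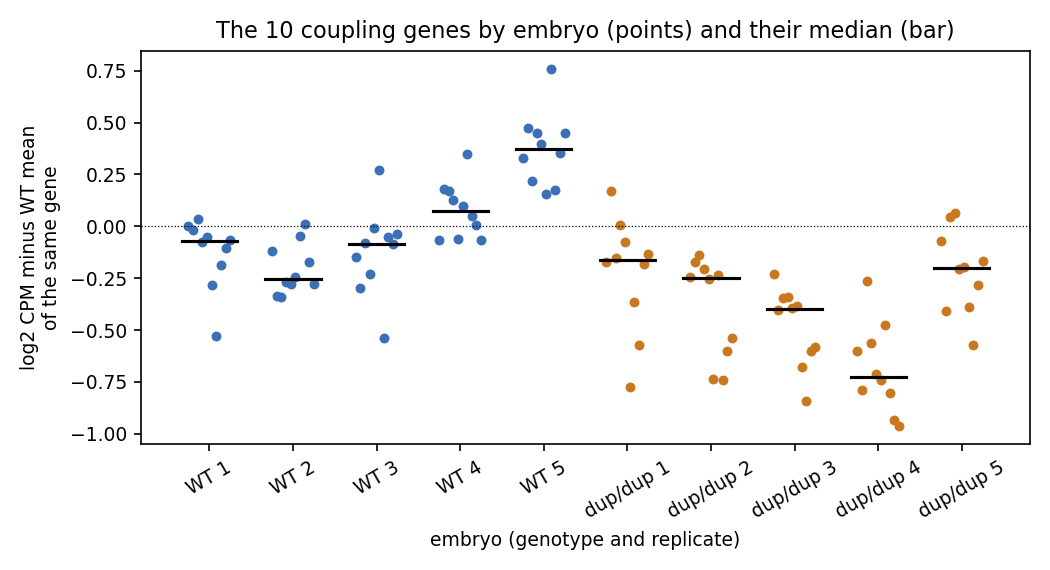
Log2 CPM of each coupling gene minus its mean over the 5 WT embryos, by embryo. Points are the 10 genes and bars their median, which was highest in WT replicate 5 (0.38) and lowest in mEC1dup/dup replicate 4 (-0.73).

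mEC1dup/dup replicate 5 had no *Xist* counts and so resembled the WT embryos in this measure. Its 9.26 CPM of *Casq1* lay below the lowest WT value of 12.1, and its 55.3 CPM of *Casq2* below the lowest WT value of 59.8. These are the genes that separated in every mEC1dup/dup embryo, so they say nothing particular about this one. Of the 10 genes, 3 lay below every WT embryo in this replicate. Its *Stac3* (13.9 CPM) and *Jph2* (32.1 CPM) lay above the WT means of 13.6 and 31.3 CPM. An effect of sex was not tested with this 1 embryo. When the log2 level of *Xist* entered the fit of all embryos as a covariate, the log2 fold change of *Casq1* was -0.61 and its call was lost (adjusted p = 0.288 in the edgeR test). When the share of embryonic globin entered instead, it was -1.11 (adjusted p = 0.898), and that share separates the genotypes completely. The *Xist* fit also moved *Ryr3* to -0.28, *Atp2a1* to -0.28 and *Jph2* to -0.04, and the median of the 10 genes to -0.28. The globin fit moved *Trdn* to -2.90 and *Cacng1* to -1.57, and the median to -0.83. In the *Xist* fit 1 of all tested genes was called lower and 2 higher, and in the globin fit 0 were called either way, so both covariates removed nearly all calls.

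Markers of differentiated skeletal muscle were examined beside the coupling genes. Of 12 such markers 11 had a negative log2 fold change, with a median of -0.44, and 3 were called lower. That count was 2 to 5 with 1 embryo left out, highest without mEC1dup/dup replicate 1, and 0 with either covariate. The 3 were *Acta1*, skeletal alpha actin (-0.88, SE 0.14, adjusted p = 0.00804), *Tnnt3*, fast troponin T (-1.06, SE 0.16, adjusted p = 0.00563), and *Myh3*, embryonic myosin heavy chain (-0.61, SE 0.14, adjusted p = 0.0331), all from the edgeR test. The summed level of the 12 markers was 2489 to 3856 CPM in WT and 1654 to 2609 CPM in mEC1dup/dup, with WT replicate 5 highest and mEC1dup/dup replicate 4 lowest, as for the coupling genes. *Myog*, the transcription factor of muscle differentiation, was the marker without a negative value (log2 fold change 0.12, SE 0.14, adjusted p = 0.745).

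The counts were therefore also scaled to the mean log2 CPM of these 12 markers in place of the library. On this scale the coupling genes had log2 fold changes from -0.29 to 0.26 with a median of 0.03, 5 were negative, and none was called (0 of the 10 had an unadjusted p under 0.05). *Casq1* stayed the lowest at -0.29 (SE 0.21, adjusted p = 0.23 in the edgeR test), and *Stac3* was the highest at 0.26 (SE 0.21, adjusted p = 0.273). This scale moved the median of all tested genes to 0.42, with 65 of the 16426 called lower and 2591 higher, so each value is a difference from the muscle markers and not from the tissue.

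**Figure D3:**
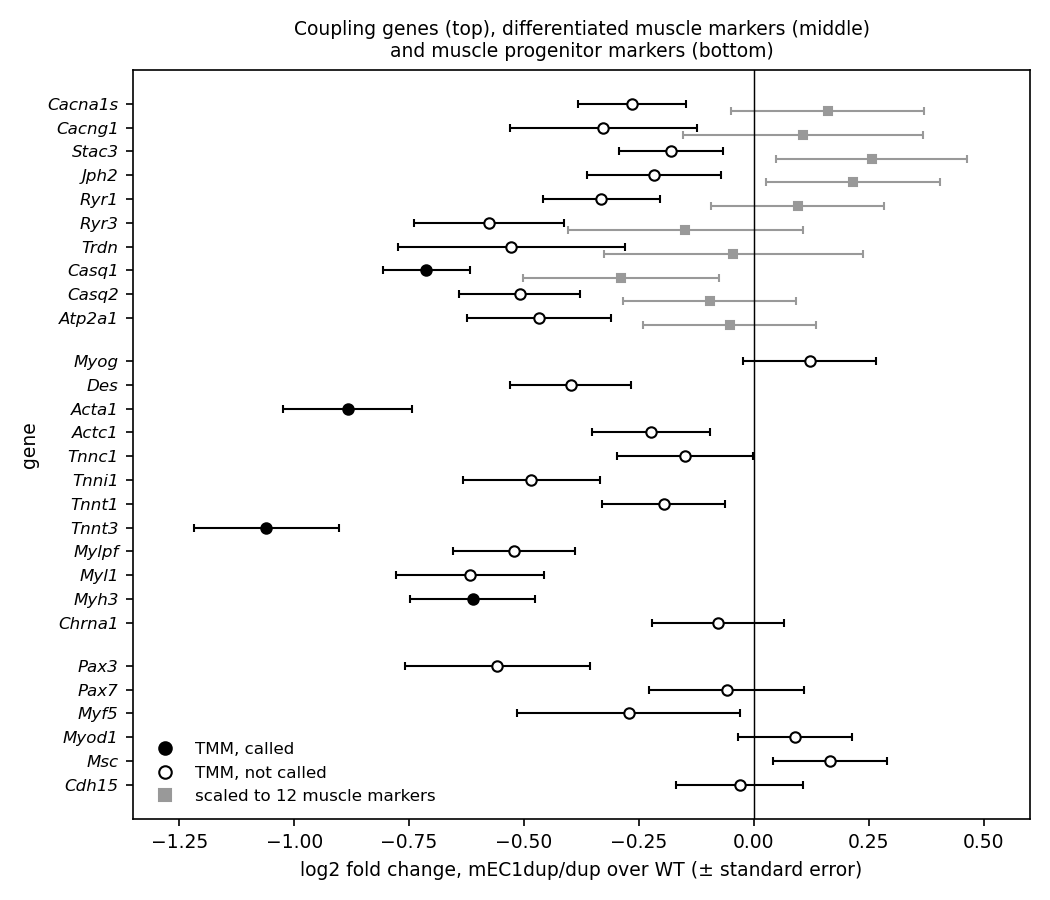
Log2 fold changes of mEC1dup/dup over WT (5 embryos each) with standard errors for the 10 coupling genes, 12 differentiated muscle markers and 6 muscle progenitor markers. Filled circles were called lower, open circles were not called, and grey squares give the coupling genes after scaling to the 12 muscle markers, where they lie on both sides of 0 (-0.29 to 0.26).

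Among muscle progenitor markers, none of the 6 (*Pax3*, *Pax7*, *Myf5*, *Myod1*, *Msc* and *Cdh15*) was called, and their median log2 fold change was -0.05. Their summed level was 117 to 177 CPM in WT and 108 to 163 CPM in mEC1dup/dup. The sum was highest in WT replicate 5 and lowest in mEC1dup/dup replicate 4, as for the differentiated markers. The log2 fold changes of the progenitor markers ran from -0.56 for *Pax3* (SE 0.20, adjusted p = 0.179 in the edgeR test) to 0.17 for *Msc*. Whether the coupling genes differed from these progenitor markers was not tested. Some coupling genes are also used in heart and smooth muscle. Of 5 markers of heart muscle, *Nppa* had at most 0.0554 CPM and *Myl7* at most 0.111 CPM. *Myh6* had 1.94 to 4.93 CPM, *Tnni3* 1.57 to 2.99 CPM and *Nkx2-5* 0.636 to 2.49 CPM over all embryos. *Nkx2-5* was higher in every mEC1dup/dup embryo than in every WT embryo but was not called (log2 fold change 0.85, SE 0.26, adjusted p = 0.111 in the edgeR test). The 5 heart markers summed to 5.08 to 8.31 CPM in WT and 5.16 to 7.09 CPM in mEC1dup/dup. The 6 smooth muscle and pericyte markers summed to 457 to 533 CPM in WT and 465 to 562 CPM in mEC1dup/dup. Of these *Rgs5*, a pericyte gene, was called lower (log2 fold change -0.50, SE 0.12, adjusted p = 0.0378 in the edgeR test), and *Tagln* was too low to be tested. *Cnn1* was lower in every mEC1dup/dup embryo than in every WT embryo but was not called (log2 fold change -0.65, SE 0.23, adjusted p = 0.163 in the edgeR test). Neuron markers summed to between 32.7 and 484 CPM in WT and between 60.2 and 211 CPM in mEC1dup/dup, and all 5 had negative log2 fold changes (median -0.60) without being called. WT replicate 4 held the 484 CPM, against 32.7 to 167 CPM in the other WT embryos, and the mean log2 CPM of the 5 was 3.86 in WT and 3.84 in mEC1dup/dup.

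Several members have a relative that serves the same step in other muscle or at another stage, and their ratio within a library does not depend on how libraries are scaled. The ratio can still depend on the amount of skeletal muscle in a library, where the relative is also expressed in other cells. *Atp2a2* (log2 fold change -0.08) and *Cacna1c* (0.03) changed little, beside -0.47 for *Atp2a1* and -0.27 for *Cacna1s*. Whether a ratio moved with muscle content or with the form used was not tested. The ratio of *Atp2a1* to *Atp2a2*, the pump of slow muscle, heart and many other cells, had a mean of -2.09 ± 0.23 in WT and -2.49 ± 0.27 in mEC1dup/dup on the log2 scale (SD, n = 5 each). The difference of -0.40 had a p of 0.0317 in a two-sided exact permutation test, and 0.159 after Benjamini-Hochberg adjustment over the 5 ratios compared. *Cacna1s* over *Cacna1c*, the channel of heart and smooth muscle, differed by -0.30 (exact permutation p = 0.119, adjusted 0.198). *Casq1* over *Casq2* differed by -0.19 (exact permutation p = 0.119, adjusted 0.198), so that a larger decrease of *Casq1* than of *Casq2* was not shown. *Ryr1* over *Ryr3* differed by 0.25 (exact permutation p = 0.214, adjusted 0.268), and by 0.13 without mEC1dup/dup replicate 1. *Jph2* over *Jph1* differed by -0.08 (exact permutation p = 0.794 before and after adjustment). In this last ratio the numerator, *Jph2*, is the form best known from heart. Since 5 embryos against 5 allow no p below 0.00794, these tests could have passed the threshold, and none did after adjustment.

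Other genes of the calcium cycle and the junction were examined as a list of 33 genes chosen by role. Of these, 31 were tested, 28 had a negative log2 fold change with a median of -0.18, and 1 was called lower and none higher. Over all 16426 tested genes 8409 were negative and 1.81% were called lower, so the share called in the list is near that background. The gene called was *Cacna2d1*, the alpha2delta subunit of the voltage sensor, which also serves other calcium channels outside muscle. It had 66.2, 62.1, 66.3, 68.3 and 74.0 CPM in WT replicates 1 to 5, and 58.9, 57.3, 53.9, 53.9 and 59.7 CPM in mEC1dup/dup replicates 1 to 5. The genotypes did not overlap, and *Cacna2d1* fell by 0.25 on the log2 scale (SE 0.05, adjusted p = 0.0241 in the edgeR test). The list held no called gene without WT replicate 1 or without mEC1dup/dup replicates 2, 3 or 4.

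*Stim1*, the sensor of calcium stores, also had no overlap between genotypes (54.7 ± 3.08 CPM in WT and 49.1 ± 1.88 in mEC1dup/dup, SD, n = 5 each). Its log2 fold change was -0.15 (SE 0.05, adjusted p = 0.123 in the edgeR test). The partners in the ratios were not called, with log2 fold changes of 0.03 for *Cacna1c*, -0.14 for *Jph1* and -0.08 for *Atp2a2*. *Hrc*, which binds calcium in the reticulum, *Sln*, which inhibits the pump, and *Cav3*, a caveolin of the muscle membrane, are named after their values were seen. Their log2 fold changes were -0.50, -0.53 and -0.62, with adjusted p of 0.0632, 0.104 and 0.114 in the edgeR test. *Pln* and *Strit1*, which encode small regulators of the pump, had at most 1 and 0 counts in any library and were not tested.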

How the data were processed

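RNA-seq was performed on pinna prominences of 5 WT and 5 mEC1dup/dup embryos. The authors used fastp for trimming, STAR for alignment to GRCm39 and featureCounts for counting, and deposited raw read counts per gene. The library kit differs between the labels and the methods of the study, and the annotation, strand setting and treatment of reads with several matches are not given in the sources used here. The groups and replicate numbers came from the sample titles.

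Symbols, positions and exonic lengths came from GENCODE M39 on GRCm39, which matched 49355 of the 53465 genes. Genes were filtered with filterByExpr, normalized by TMM and tested with edgeR version 4.0.16 in R version 4.3.3 (glmQLFit and glmQLFTest, genotype as the only term) with Benjamini-Hochberg adjustment over 16426 genes. Standard errors are the log2 fold change divided by the square root of F. Log2 CPM used a prior count of 2, and ratios added 0.5 to each count. The fit was tested on simulated data. Depth was similar across libraries, and precision was set by the count of a gene and by its spread between embryos.

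The members, gene lists and tests were chosen with earlier results of these data known. Named were all 10 members, genes of the other list that were called or did not overlap, ratio partners, and the abundant or called markers. *Hrc*, *Sln*, *Cav3*, *Pln*, *Strit1*, *Pax3*, *Msc*, *Tagln*, *Cnn1*, *S100a1* and the heart markers fall outside this rule and were named after their values were seen. Alternatives used DESeq2 version 1.42.0, limma-voom (limma version 3.58.1), other filters, thresholds and scalings, covariates, the replicate block and each embryo left out. No 2 libraries of one genotype were copies of each other, with a chi-square per degree of freedom of at least 2.56 between any of them. Figures were drawn with matplotlib version 3.10.9.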

Additional observations from a re-analysis of the deposited data

Results flagged for a closer look

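Among 34 groups of 5 values examined for a single distant value (Dixon's test, critical value 0.71), 2 passed, and chance gives about 1 in 20. Both were WT replicate 5. *Atp2a1* had 84.2 CPM there, against 50.8 to 60.1 CPM in the other WT embryos, and *Cacna1s* had 16.1 CPM, against 11.6 to 12.8 CPM. Without this embryo the log2 fold changes were -0.34 for *Atp2a1* and -0.17 for *Cacna1s*, in place of -0.47 and -0.27.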

How the results depend on the processing

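The number of the 10 coupling genes called lower was 1, and it was 3 with the Wald test of DESeq2, 2 without a filter on low counts, and 0 when scaled to the differentiated muscle markers, with the *Xist* covariate or with the embryonic globin share covariate (1 and 2 of the 10 then had an unadjusted p under 0.05 with *Xist* and globin). Over all tested genes, 297 were called lower and 137 higher. These counts were 510 and 321 with DESeq2, 329 and 132 without the filter, 487 and 200 with the block below, and 65 and 2591 with the scaling to muscle markers. With 1 embryo left out the count called lower ran from 120 (without mEC1dup/dup replicate 3) to 476 (without WT replicate 4), and that of genes called higher from 34 to 179, so the background shares move with single embryos. Leaving out each embryo gave 1 to 2 coupling genes. The number of other coupling genes called lower was 1, and it was 4 with DESeq2, 2 without the filter, and 0 at an adjusted p of at most 0.01, with the scaling to muscle markers or with either covariate. Leaving out each embryo gave 0 to 3. Fitted with a replicate block, the counts were 4 (*Casq1*, *Casq2*, *Ryr3* and *Atp2a1*) and 2. Same-numbered libraries had a mean correlation of deviations of 0.162, from -0.0558 to 0.345, with 4 of the 5 pairs above 0.1 and a mean of -0.0403 for other pairs. Only 4 of the 10 samples correlated best with their own number, and the labels state no pairing. No gene of either list was called higher under any alternative. Scaling to the muscle markers turned *Ryr1* (0.10), *Cacna1s* (0.16), *Cacng1* (0.11), *Stac3* (0.26) and *Jph2* (0.22) positive, as did the *Xist* covariate *Stac3* (0.0028). The cause was not tested beyond the construction of these fits. Leaving out each embryo moved the ratio of *Jph2* to *Jph1* between -0.23 and 0.070, where it was 0.013 without WT replicate 5 and 0.070 without mEC1dup/dup replicate 4. The ratio of *Ryr1* to *Ryr3* ran from 0.13 to 0.31 and was 0.077 between medians. The muscle markers called lower were 5 with DESeq2 or without the filter, 7 with the block, 2 at an adjusted p of at most 0.01, and 1 when scaled to their own mean. Ratios were not called with 2 added to each count or with medians. Among the 10 genes depth limits *Trdn* most, with as few as 42 counts in a library.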

Other observations

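*Tagln* and *Pln* share 66.7% and 45.9% of their exonic bases with exons of genes on the opposite strand, and had at most 0.554 and 0.0551 CPM in any library. *S100a1*, with an overlap of 89.2%, had 3.20 to 6.04 CPM, and *Myl7*, with an overlap of 0, had at most 0.111 CPM. The corresponding overlap was 20.8% for *Cacna1s*, 17.6% for *Atp2a1* and 30.3% for *Atp2a2*, and 0 for *Casq2*, *Cacng1*, *Stac3* and *Jph2*. Whether reads in such bases were left out of the deposited counts was not tested.

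Among regulators of muscle differentiation, *Myog* had 79.7 to 131 CPM in WT and 85.2 to 132 CPM in mEC1dup/dup, and *Myod1* had 42.7 to 69.2 and 46.8 to 65.4 CPM, with overlapping ranges and no call for either gene. Whether they differed from the coupling genes was not tested.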
